A study of Bos grunniens with 18 samples.

Results

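The genes of cholesterol export and cholesterol synthesis that answer to the liver X receptor (LXR) and to the sterol regulatory element-binding proteins (SREBPs) were followed in whole blood of female yaks at 3 reproductive stages. The set was given by name and held 8 genes: *NR1H3*, *ABCA1*, *ABCG1*, *MYLIP*, *HMGCS1*, *SQLE*, *INSIG1* and *SREBF2*. All 8 had a single row in the deposited table of 20607 genes, and all 8 were among the 14508 genes that passed edgeR's low-count filter and were tested. Each stage had 6 libraries, from adult females of a stated age of 4 to 8 years: Y-A stands for anestrus, Y-E for estrus and Y-P for pregnancy. According to the study's methods the blood came from cows of an artificially inseminated herd, and blood was tracked through the stages. Estrus was synchronized with a progesterone pessary, a prostaglandin F2α analogue and GnRH before a timed insemination. The time of pregnancy at which blood was drawn is not given in the sources used here.

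LXRα, encoded by *NR1H3*, is a nuclear receptor that binds oxidized cholesterol derivatives together with a retinoid X receptor and turns on genes that remove sterol from the cell. Among its best known targets in macrophages are the exporters *ABCA1* and *ABCG1* and the ubiquitin ligase *MYLIP*, also named IDOL, which sends the LDL receptor to degradation. SREBP-2, encoded by *SREBF2*, works in the other direction: when sterol in the endoplasmic reticulum is low it is cleaved, enters the nucleus and turns on synthesis genes such as *HMGCS1* and *SQLE*, as well as *INSIG1*, whose product holds the SREBP precursor back. Monocytes and macrophages are the blood lineage in which the LXR targets are best known. In whole blood, fewer cells of a type and less RNA per cell cannot be told apart.

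Total counts of the 18 libraries ranged from 30247267 to 48401076, and the lowest count of any member in any library was 172, for *ABCG1*. Levels are given as CPM, the count of a gene scaled to a common library size after TMM normalization of the deposited counts. The share of counts on hemoglobin genes was 3.10% to 16.7% for Y-A libraries, 0.0899% to 8.36% for Y-E and 0.0272% to 0.376% for Y-P. Y-E replicate 6 carried the 8.36%, while the other 5 Y-E libraries reached at most 0.713%, and this library has no entry in the study's own sample tables. The fits were therefore also run without Y-E replicate 6, and the members' fold changes from them are given after the single genes. Leukocyte markers were found in every library: all 6 neutrophil, 6 T cell, 8 B cell and 4 eosinophil genes that the table lists had counts in each of the 18. Of the other lists, *CD300E* (monocytes) was at 0 in 1 library, *HBM* in 1 and *SLC4A1* in 3 (red cells), and the platelet genes *GP1BA* in 3 and *GP1BB* in 8.

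Per unit of transcript length, the regulator *SREBF2* was the most abundant of the 8 genes and the exporter *ABCG1* the least. On the deposited FPKM scale, which divides fragments by transcript length and library depth, the median level over the 18 libraries was 59.6 for *SREBF2* and 38.0 for *MYLIP*. The synthesis genes followed, *SQLE* at 30.9, *HMGCS1* at 23.0 and the sterol sensor partner *INSIG1* at 12.7. The receptor *NR1H3* had a median FPKM of 7.19, *ABCA1* 5.76 and *ABCG1* 3.93. Neighbours in this order were not equally apart. *HMGCS1* lay above *INSIG1* in 18 of 18 libraries and *SQLE* above *HMGCS1* in 17, whereas *MYLIP* exceeded *SQLE* in only 11 and *NR1H3* exceeded *ABCA1* in only 11. *SREBF2* over *MYLIP*, *INSIG1* over *NR1H3* and *ABCA1* over *ABCG1* each held in 15 of the 18. In CPM, the highest library exceeded the lowest 4.56-fold for *NR1H3*, 4.32-fold for *ABCG1* and 3.71-fold for *ABCA1*, and 1.78-fold to 2.44-fold for the other 5 genes.

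**Figure D1:**
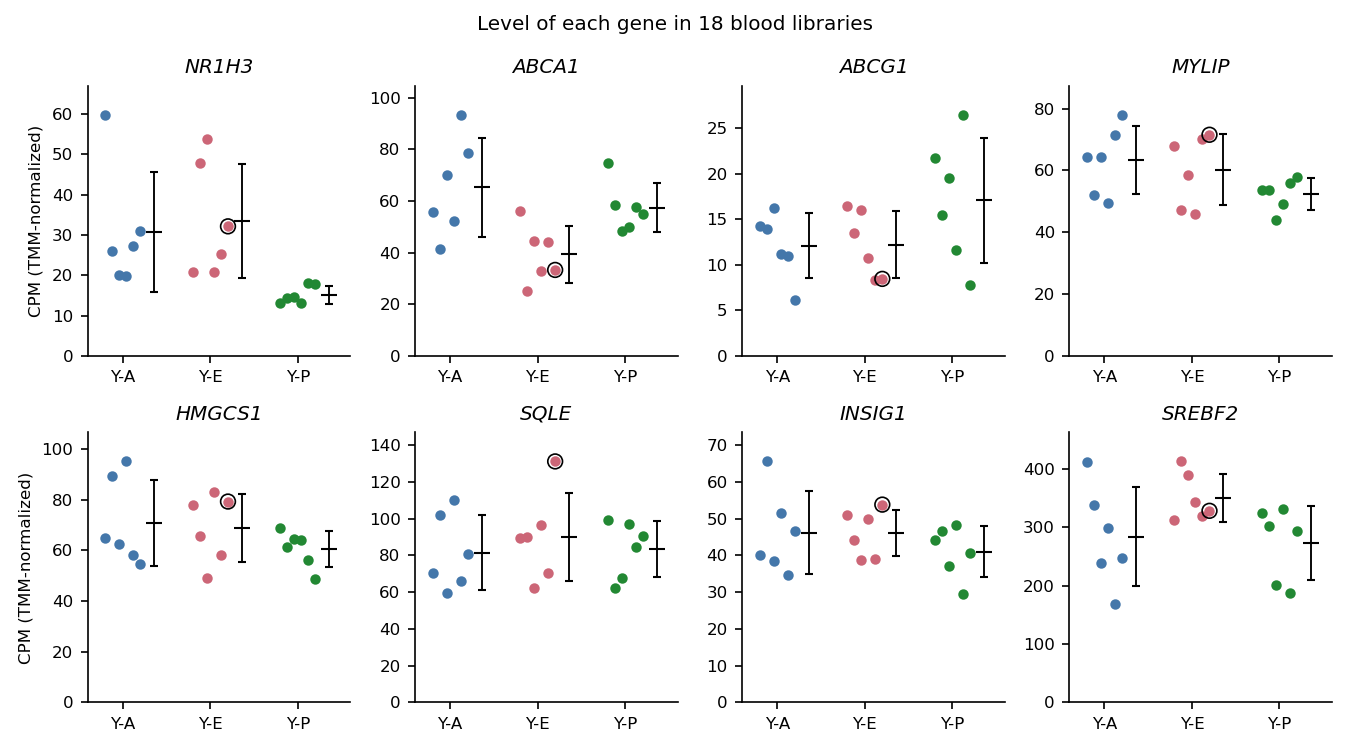
CPM after TMM normalization (vertical axes, linear, from 0) of the 8 genes in each library of Y-A, Y-E and Y-P. Points are single libraries, the circled point is Y-E replicate 6, and bars give mean and SD (n = 6). For *NR1H3* every Y-P point lies under every Y-A and Y-E point, while for the other 7 genes the stages overlap.

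The receptor *NR1H3* was lower in pregnancy than at either other stage, and it was the only member that passed the test in any comparison. The gene (*ENSBGRG00000016958*) is placed at chr13:30138077-30146359, plus strand, in the coordinates of the deposited table (genome version v101), and overlaps no other listed gene. In Y-A its lowest, median and highest levels were 19.8, 26.7 and 59.8 CPM. In Y-E they were 20.7, 28.7 and 53.7 CPM, and in Y-P 13.1, 14.4 and 18.1 CPM. The highest pregnant library thus stayed under the lowest library of both other stages, and the Y-P libraries were also the closest to each other, with a mean of 15.2 ± 2.23 CPM (SD, n = 6) against 30.7 ± 14.9 for Y-A and 33.4 ± 14.2 for Y-E (SD, n = 6 each).

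For Y-P vs. Y-E, *NR1H3* fell to 0.455 of its estrus level, a log2 fold change of −1.14 (SE 0.28, 95% interval −1.71 to −0.56, edgeR's quasi-likelihood test, two-sided, Benjamini-Hochberg adjusted p = 0.0106). Of all tested genes, 14.4% passed an adjusted p under 0.05 in this comparison, 8.68% as lower, and 2.22% were lower by the study's double criterion, which also asks for a change of 1 or more on the log2 scale and which *NR1H3* met. For Y-P vs. Y-A the level fell to 0.495, a log2 fold change of −1.01 (SE 0.28, 95% interval −1.59 to −0.44, adjusted p = 0.0371, edgeR). Here 5.83% of the tested genes passed, 3.61% as lower, and 1.09% were lower by the double criterion, *NR1H3* among them. Matched by replicate number, the Y-P library was under the Y-A library in 6 of 6 numbers and under the Y-E library in 6 of 6. Any matching would give this, as every Y-P value lay under every Y-A and Y-E value, so it adds nothing to that separation. A complete separation of the CPM values with Y-P lower was found for 2.32% of the tested genes against Y-A and for 3.84% against Y-E. Both comparisons share the Y-P libraries.

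The fall against estrus passed in 18 of 18 fits with a library removed and in 10 of 10 other settings, though the change was under 1 on the log2 scale, and so outside the double criterion, with library size only (−0.97), with limma on log2 FPKM (−0.76 and −0.85) and without Y-E replicate 3 (−0.95). The fall against anestrus was less firm. Y-A replicate 1, at 59.8 CPM, stood far from the other 5, whose highest was 31.0 CPM, and without it the log2 fold change was −0.73 (adjusted p = 0.0778, edgeR). The adjusted p stayed under 0.05 in 10 of the 18 fits with a library removed. Every fit without a Y-E library, a stage not compared here, was among them. It was above 0.05 when Y-A replicate 1, 5 or 6 or any of Y-P replicates 1 to 5 was removed (highest 0.0778). Of the compared libraries, only removal of Y-A replicate 2, 3 or 4 or of Y-P replicate 6 left it under 0.05. The change against anestrus was under 1 with the replicate block (−0.96, adjusted p = 0.047), with library size only (−0.82) and without Y-P replicate 1, 2 or 4 (−0.975, −0.996 and −0.976). On log2 FPKM with limma it was −0.63 and −0.70 (adjusted p = 0.0642 and 0.0585), and the deposited FPKM values overlapped, 4.93 to 6.98 in Y-P against 6.65 to 17.7 in Y-A. The FPKM values overlapped against estrus as well, where the lowest Y-E library had 6.87. For Y-E vs. Y-A, *NR1H3* had a log2 fold change of 0.12 (SE 0.27, adjusted p = 0.999), with an interval from −0.45 to 0.69.

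Levels of some blood cell markers differed between pregnancy and the other stages. In Y-E vs. Y-A no listed marker gene passed (edgeR). The 6 neutrophil genes in the table summed to 3663 to 5958 CPM for Y-A, 5045 to 9499 for Y-E and 2961 to 4137 for Y-P, and 4 of the 6 were lower in Y-P vs. Y-E, 0 in Y-P vs. Y-A. The 8 monocyte genes summed to 881 to 1707 CPM for Y-A, 811 to 2047 for Y-E and 531 to 1463 for Y-P, with 1 of 8 lower in Y-P vs. Y-E and 0 in Y-P vs. Y-A. The 6 T cell genes summed to 1112 to 1281 CPM for Y-A, 1090 to 1336 for Y-E and 1341 to 2152 for Y-P, with 2 higher in Y-P vs. Y-A and 3 in Y-P vs. Y-E. The 5 red cell genes summed to 604 to 11763 CPM for Y-A, 161 to 5089 for Y-E and 92.6 to 179 for Y-P. Y-E replicate 6 carried the 5089 CPM, while the other 5 Y-E libraries reached at most 257 CPM, under every Y-A library. Of the 5 red cell genes, 5 were lower in Y-P vs. Y-A and 3 in Y-P vs. Y-E, and of the 4 tested platelet genes 2 were lower in each. None of the 8 B cell genes passed in any comparison (edgeR), and of the 4 eosinophil genes 1 was lower in Y-P vs. Y-E. Of all tested genes 8.68% were lower in Y-P vs. Y-E and 3.61% in Y-P vs. Y-A, and 5.77% and 2.22% were higher in the same order. The part of these shifts in the level of *NR1H3* was not tested.

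The exporter *ABCA1*, which loads cholesterol onto apolipoprotein A-I, had its lowest levels in estrus, but it passed in no comparison of the edgeR fit with TMM normalization. Its row (*ENSBGRG00000001141*) gives chr7:31964278-32110729, minus strand. The lowest, median and highest levels were 41.3, 62.9 and 93.3 CPM for anestrus, 25.2, 38.7 and 56.1 CPM for estrus and 48.5, 56.5 and 74.8 CPM for pregnancy. The ranges overlapped between all stages, though the Y-P library was above the Y-E library in 6 of 6 replicate numbers. The log2 fold change was −0.73 in Y-E vs. Y-A (SE 0.20, 95% interval −1.14 to −0.32, unadjusted p = 0.00156, adjusted p = 0.343, edgeR). Of all genes tested between these stages 0.0207% passed, while 6.2% were under 0.05 unadjusted. Among the members 0 passed by edgeR, 0 by DESeq2 and 0 by limma on FPKM, and *ABCA1* alone had an unadjusted p under 0.05. In Y-P vs. Y-E the log2 fold change of *ABCA1* was 0.55 (SE 0.20, interval 0.13 to 0.96, adjusted p = 0.0698, edgeR). This second difference passed with the replicate number as a block (0.59, adjusted p = 0.025) and in 5 other settings. Of the 18 fits with a library removed it passed in 1, without Y-E replicate 1 (0.66, adjusted p = 0.0326). In the others the adjusted p was above 0.05 and at most 0.155. Without Y-E replicate 6 the difference was 0.50 (adjusted p = 0.121), and with the block as well 0.52 (adjusted p = 0.0624). In Y-P vs. Y-A the value was −0.18 (adjusted p = 0.629). All 3 comparisons are built from the same libraries, and the low Y-E values enter both of the larger differences.

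The second exporter, *ABCG1*, which passes sterol to high-density lipoprotein, was not shown to differ. At chr1:155388864-155461511, plus strand (*ENSBGRG00000017210*), it ran at 6.12, 12.5 and 16.2 CPM in Y-A as lowest, median and highest. The same values were 8.28, 12.1 and 16.5 CPM in Y-E and 7.75, 17.5 and 26.4 CPM in Y-P, so the pregnant libraries overlapped both other stages and reached higher. Its log2 fold change was 0.50 in Y-P vs. Y-A (SE 0.28, interval −0.08 to 1.08, adjusted p = 0.296) and 0.48 in Y-P vs. Y-E (SE 0.28, interval −0.09 to 1.06, adjusted p = 0.263, edgeR). It was higher in Y-P than in Y-A in 6 of 6 replicate numbers. These intervals leave room for a rise of over 1 on the log2 scale as well as for no change.

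*MYLIP* (chr24:44631030-44653887, minus strand, *ENSBGRG00000010121*) had the narrowest range of the 8 genes over all libraries. Its mean level was 63.2 ± 11.0 CPM at anestrus, 60.2 ± 11.5 at estrus and 52.3 ± 5.11 at pregnancy (n = 6 each, SD). Fitted log2 fold changes were −0.07 in Y-E vs. Y-A (interval −0.36 to 0.21), −0.27 in Y-P vs. Y-A (interval −0.56 to 0.01, adjusted p = 0.24, edgeR) and −0.20 in Y-P vs. Y-E (interval −0.49 to 0.08, adjusted p = 0.353). The pregnant library was lower in 5 of 6 replicate numbers against Y-A and in 4 of 6 against Y-E. *NR1H3* thus differed between pregnancy and the other stages while the 3 targets did not pass, and whether the difference of *NR1H3* exceeds theirs was not tested.

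**Figure D2:**
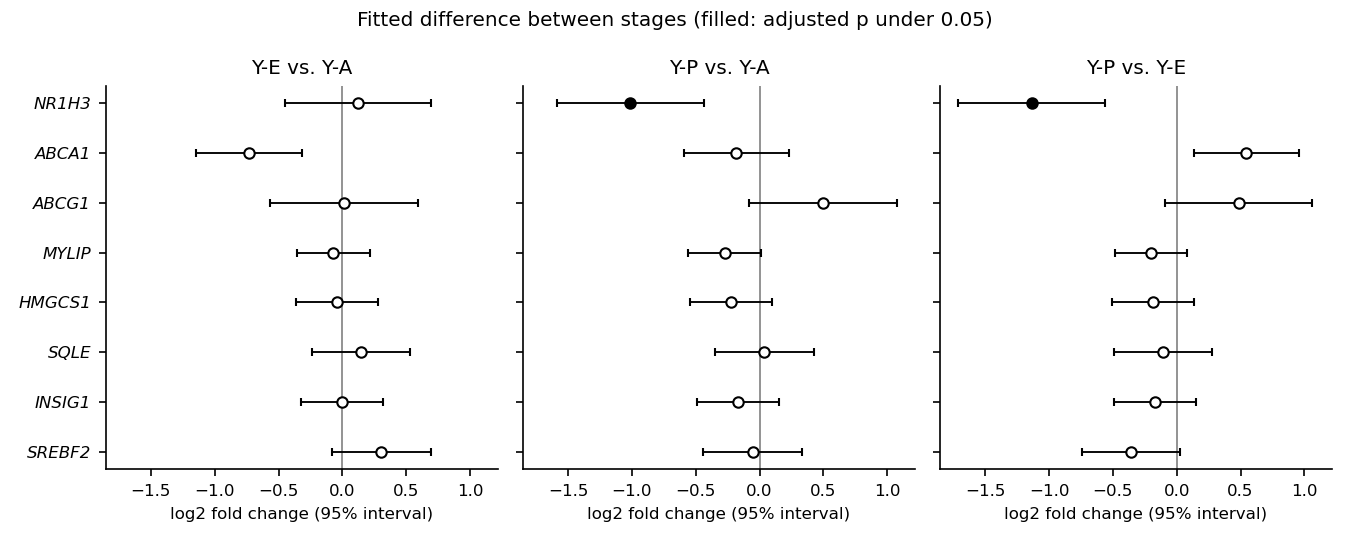
Fitted log2 fold changes of the 8 genes in the 3 comparisons (horizontal axis), with 95% intervals from edgeR's quasi-likelihood fit over 18 libraries. Filled points passed an adjusted p under 0.05; these are *NR1H3* at −1.01 in Y-P vs. Y-A and −1.14 in Y-P vs. Y-E.

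The SREBP side of the set showed no difference that passed, in any of the 3 comparisons. *SREBF2* (chr5:121269861-121335802, plus strand, *ENSBGRG00000009606*) overlaps on its own strand the microRNA gene *MIR33A*, which had a mean of 0.00529 CPM here. The lowest, median and highest levels of *SREBF2* were 169, 273 and 412 CPM for Y-A, 312, 336 and 412 in Y-E and 188, 297 and 332 in Y-P. Estrus thus had the highest low end, but 412 CPM was reached in Y-A too. The log2 fold change was 0.31 in Y-E vs. Y-A (SE 0.18, interval −0.08 to 0.69, adjusted p = 0.904), −0.36 in Y-P vs. Y-E (SE 0.18, interval −0.75 to 0.03, adjusted p = 0.207) and −0.05 in Y-P vs. Y-A (SE 0.18, adjusted p = 0.896, edgeR). The last value changed sign with the scaling and was 0.13 with the library size only.

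*HMGCS1*, the cytosolic HMG-CoA synthase that opens the pathway, is placed at chr23:52275771-52284329, minus strand (*ENSBGRG00000015970*). Its lowest, median and highest levels were 54.8, 63.7 and 95.1 CPM for anestrus, 49.0, 71.7 and 83.0 for estrus and 48.9, 62.6 and 68.7 for pregnancy. The stages overlapped over most of their ranges. Its log2 fold changes were −0.04 in Y-E vs. Y-A, −0.23 in Y-P vs. Y-A and −0.18 in Y-P vs. Y-E (SE 0.15 each, adjusted p = 0.999, 0.415 and 0.468, edgeR). With limma on log2(FPKM + 1) and log2(FPKM + 0.1) both differences of pregnancy were at or above 0, at most 0.02. In these settings the median over all tested genes was 0.15 and 0.22 in Y-P vs. Y-A and 0.14 and 0.21 in Y-P vs. Y-E.

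*SQLE*, the squalene epoxidase, is at chr18:2598537-2622117, minus strand (*ENSBGRG00000012556*). Its mean was 81.4 ± 20.5 CPM at anestrus, 90.0 ± 24.1 at estrus and 83.6 ± 15.3 at pregnancy (SD, n = 6 each). The highest level of all 18 libraries, 131 CPM, belonged to Y-E replicate 6, and the mean of the other 5 Y-E libraries was 81.7 ± 14.7 CPM (SD, n = 5). The log2 fold change in Y-P vs. Y-E was −0.11 with all libraries and 0.03 without Y-E replicate 6 (adjusted p = 0.754 and 0.929, edgeR). In Y-E vs. Y-A it was 0.14 (SE 0.18, adjusted p = 0.999) and in Y-P vs. Y-A 0.04 (SE 0.18, adjusted p = 0.926).

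*INSIG1* (chr4:12827088-12839989, plus strand, *ENSBGRG00000010766*) averaged 46.2 ± 11.3 CPM at anestrus, 46.1 ± 6.36 CPM at estrus and 41.0 ± 6.96 CPM at pregnancy (SD, n = 6 each). Its log2 fold changes were −0.0013 in Y-E vs. Y-A (interval −0.32 to 0.32), −0.17 in Y-P vs. Y-A (interval −0.49 to 0.15) and −0.17 in Y-P vs. Y-E (interval −0.49 to 0.15). For the 4 SREBP genes together, the 95% intervals ran from −0.36 to 0.69 in Y-E vs. Y-A, from −0.55 to 0.42 in Y-P vs. Y-A and from −0.75 to 0.28 in Y-P vs. Y-E. A change of 1 on the log2 scale lay outside all of them.

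Over the 8 genes, 0 passed in Y-E vs. Y-A, 1 in Y-P vs. Y-A and 1 in Y-P vs. Y-E, where 0.0207%, 5.83% and 14.4% of all tested genes did. The median log2 fold change was 0.01, −0.18 and −0.18, beside −0.01, 0.03 and 0.04 over all tested genes.

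Without Y-E replicate 6, *SQLE* alone changed the direction of its fitted difference and no member's call changed. For Y-P vs. Y-E the log2 fold changes then were −1.15 for *NR1H3* (adjusted p = 0.0154, edgeR), 0.50 for *ABCA1*, 0.40 for *ABCG1*, −0.15 for *MYLIP*, −0.38 for *SREBF2*, −0.14 for *HMGCS1*, 0.03 for *SQLE* and −0.12 for *INSIG1*. For Y-E vs. Y-A they were 0.13, −0.69, 0.10, −0.13, 0.32, −0.09, 0.01 and −0.05 in the same order. The estrus median was 25.3 CPM for *NR1H3* and 65.5 CPM for *HMGCS1* over the other 5 libraries.

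The rest of cholesterol handling was described with 4 lists of 69 genes, of which 62 are in the table and 59 were tested. In Y-E vs. Y-A 0 of the 59 passed by edgeR (2 had an unadjusted p under 0.05, and DESeq2 called 1, *LIPE*), in Y-P vs. Y-A 1 passed, and in Y-P vs. Y-E 8 passed, 7 as lower and 1 as higher. The 8 of 59 are 13.6%, beside 14.4% of all tested genes.

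Among partners and further targets of LXR, 2 of 12 tested genes, or 16.7%, fell in Y-P vs. Y-E. Of all tested genes 8.68% were lower and 14.4% passed in either direction. The retinoid X receptor gene *RXRA*, whose product pairs with LXRα, had 116 to 258 CPM in Y-A (median 181), 206 to 381 in Y-E (median 272) and 92.0 to 157 in Y-P (median 116). No Y-P library reached the lowest Y-E library, and the log2 fold change was −1.19 (SE 0.20, adjusted p = 0.00107, edgeR). *LPCAT3*, a phospholipid-remodelling enzyme under LXR control, had 50.7 to 89.9 CPM in Y-E and 36.4 to 55.5 in Y-P, with a log2 fold change of −0.49 (SE 0.15, adjusted p = 0.0372). The ranges of *LPCAT3* overlapped, and it did not pass in 3 of 10 other settings or without Y-E replicate 1, 2 or 3 or Y-P replicate 2, 3 or 5. The list's median was −0.25 in this comparison.

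The 19 tested genes of synthesis and uptake had a median log2 fold change of 0.00 in Y-P vs. Y-E and 0.06 in Y-P vs. Y-A, beside 0.04 and 0.03 over all tested genes. Of the 19, 1 gene (5.26%) was lower in Y-P vs. Y-E, where 8.68% of all tested genes were, and 0 passed in Y-P vs. Y-A.

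Of the 13 tested genes of SREBP processing and sterol sensing, *NFYB*, a subunit of the factor that binds beside SREBP, was higher in Y-P vs. Y-E. Its level was 13.6 to 24.0 CPM in Y-E and 21.1 to 31.2 in Y-P, a log2 fold change of 0.40 (SE 0.13, adjusted p = 0.0497). Of all tested genes 5.77% were higher. The ranges overlapped, and the call was lost in 14 of 18 fits with a library removed; it held without Y-E replicate 1 or 6 and without Y-P replicate 2 or 4.

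Storage and transport inside the cell held the largest number, 4 of 15 lower in Y-P vs. Y-E, or 26.7%, where 8.68% of all tested genes were lower. The esterifying enzyme *SOAT1* had 145 to 276 CPM in Y-A (median 202), 155 to 281 in Y-E (median 230) and 83.2 to 167 in Y-P (median 137). It fell in Y-P vs. Y-E by 0.77 on the log2 scale (SE 0.18, adjusted p = 0.00803) and in Y-P vs. Y-A by 0.63 (SE 0.18, adjusted p = 0.0445, edgeR). The second call was lost in 5 of 10 other settings and in 11 of 18 fits with a library removed (Y-A replicates 1, 3, 5 and 6, Y-E replicates 2, 3 and 5, Y-P replicates 2 to 5), in which the log2 fold change was −0.65 to −0.52 and the adjusted p at most 0.104. The hormone-sensitive lipase *LIPE* was at 32.7 to 62.4 CPM in Y-E and 18.6 to 28.5 in Y-P, without overlap, while Y-A lay at 19.0 to 36.3, and its log2 fold change in Y-P vs. Y-E was −0.85 (SE 0.18, adjusted p = 0.00403). The scavenger receptor *SCARB1*, which takes up sterol from high-density lipoprotein, was at 147 to 247 CPM in Y-E and 109 to 144 in Y-P, a log2 fold change of −0.57 (SE 0.15, adjusted p = 0.017), which did not pass with limma on log2 FPKM (−0.35 and −0.36, adjusted p = 0.0573 and 0.0598). *OSBPL2*, an oxysterol-binding protein relative, had a log2 fold change of −0.34 (SE 0.10, adjusted p = 0.0364), which did not pass in 7 of 10 other settings or in 9 of 18 fits with a library removed (Y-E replicates 2, 3, 5 and 6, Y-P replicates 1 to 5), in which it was −0.35 to −0.29 with an adjusted p of at most 0.0977. The median of this list was −0.32, beside 0.04 over all tested genes. The neutrophil marker sums given above were lower in Y-P than in Y-E in the same libraries, and their part in these values was not tested.

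**Figure D3:**
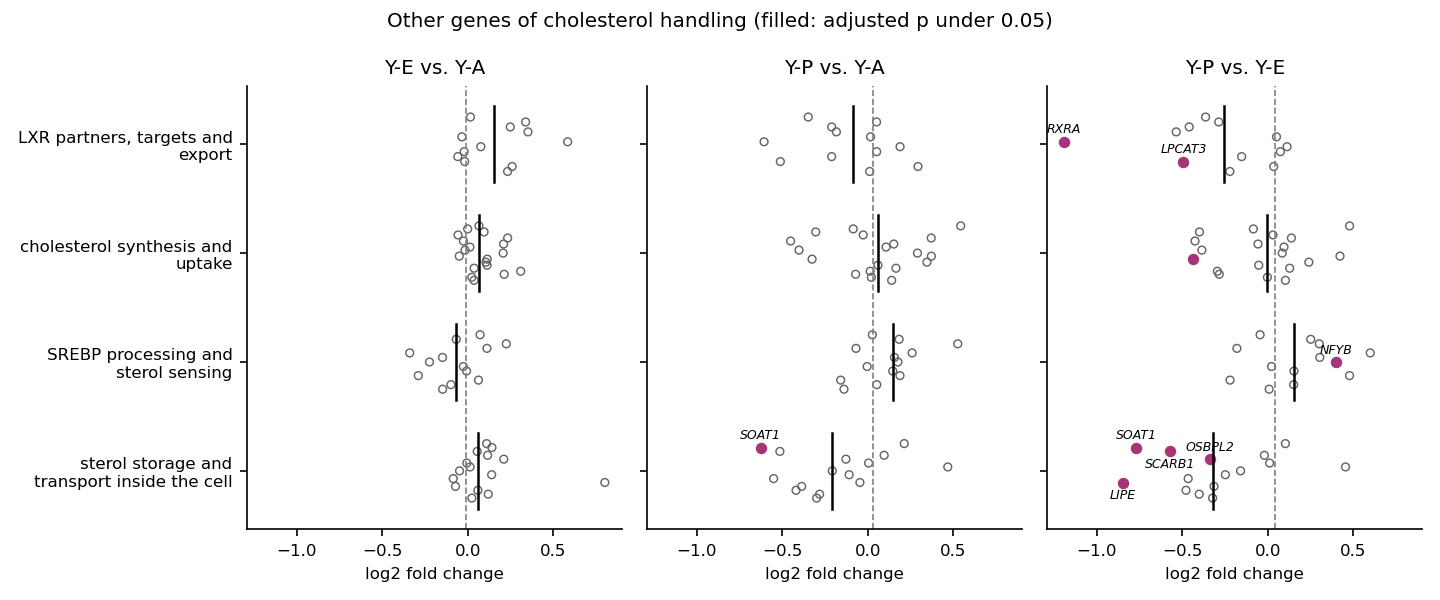
Log2 fold changes (horizontal axis) of 59 further genes of cholesterol handling in 4 lists, in the 3 comparisons. Circles are genes, filled where the adjusted p was under 0.05, and filled circles described in the text are named. Black lines are list medians and the dashed line is the median of all tested genes. In Y-P vs. Y-E 7 of the 8 filled points lie left of 0.

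Variation between libraries of the same stage was then examined, with each stage's mean taken off the log2 CPM values. The 18 libraries share cows, depth and cell makeup, so these correlations are descriptions across 18 libraries. The 3 SREBP target genes varied together: Pearson's r was 0.69 for *HMGCS1* with *INSIG1* (Spearman's rho 0.71), 0.67 for *HMGCS1* with *SQLE* (rho 0.68) and 0.64 for *SQLE* with *INSIG1* (rho 0.64). Without the 2 libraries farthest from the median of the first gene, r was 0.68, 0.53 and 0.60. Among 10669 genes ranked by r to *INSIG1*, *HMGCS1* was number 13 and *SQLE* number 26. In the ranking for *HMGCS1*, *INSIG1* was number 46 and *SQLE* number 58. In that for *SQLE*, *HMGCS1* was number 266 and *INSIG1* number 393. The relation was seen in anestrus and estrus, with r from 0.75 to 0.94 over 6 libraries each, but r was 0.36, −0.05 and 0.08 in the 6 pregnant libraries. A difference between stages in these correlations was not tested.

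*SREBF2* itself followed its targets unevenly, with r of 0.54 to *INSIG1*, 0.25 to *SQLE* and 0.21 to *HMGCS1*. By stage, r over the 6 estrus libraries was −0.41, −0.29 and −0.47 in this order, over the 6 anestrus libraries 0.52, 0.42 and 0.48, and over the 6 pregnant libraries 0.92, 0.38 and 0.18. These values rest on 6 libraries each, and a difference between stages in them was not tested. The LXR targets did not form a group: *ABCA1* and *MYLIP* had r of 0.71 (rho 0.69, 0.60 without the 2 farthest libraries). *MYLIP* was number 10 of 10669 for *ABCA1*, and *ABCA1* was number 40 for *MYLIP*. In contrast *ABCA1* and *ABCG1* had r of 0.02, and *NR1H3* had r of −0.20, 0.07 and 0.09 to *ABCA1*, *ABCG1* and *MYLIP*. Across the sets, 11 of the 12 correlations of *NR1H3*, *ABCA1*, *ABCG1* and *MYLIP* with *HMGCS1*, *SQLE* and *INSIG1* were negative, from −0.54 for *NR1H3* with *HMGCS1* to 0.21 for *ABCG1* with *HMGCS1*. As *HMGCS1*, *SQLE* and *INSIG1* varied together, the 12 values are not separate observations. By stage 11, 10 and 7 of the 12 were negative in anestrus, estrus and pregnancy, and the 3 values of *ABCA1* lay between −0.84 and −0.69 in anestrus and between 0.09 and 0.34 in pregnancy. Without the 2 farthest libraries 10 of the 12 were negative, and r was 0.03 for *NR1H3* with *SQLE*, 0.02 for *MYLIP* with *SQLE* and −0.17 for *ABCG1* with *HMGCS1*.

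**Figure D4:**
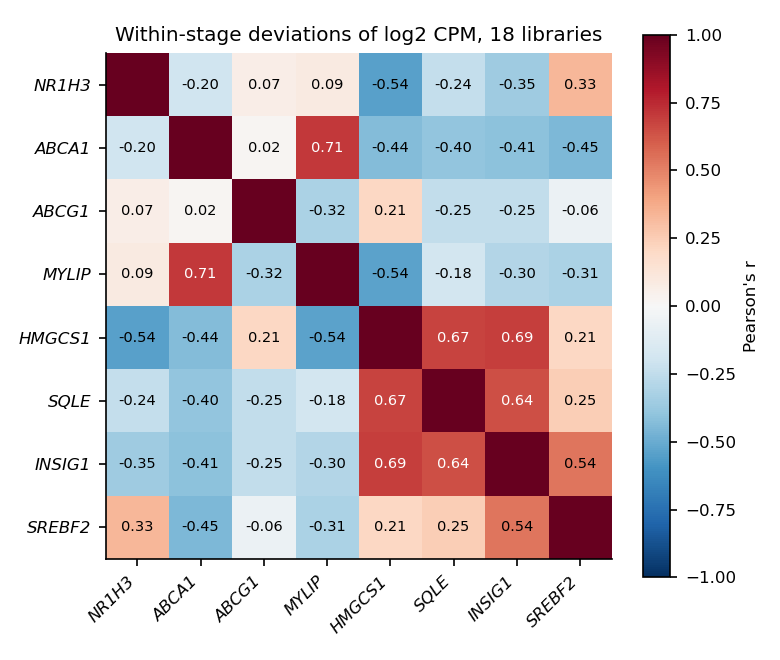
Pearson's r between the 8 genes over 18 libraries, on log2 CPM with each stage's mean removed; colour runs from −1 (blue) to 1 (red). *HMGCS1*, *SQLE* and *INSIG1* form a block of 0.64 to 0.69, and *ABCA1* with *MYLIP* reaches 0.71.

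For each member the 3 named genes with the most similar level over the 18 libraries were sought, by Pearson's r of log2 CPM against 10669 genes, stage differences included. For *SQLE* they included *MSMO1* (r = 0.93) and *CYP51A1* (0.89), which encode later enzymes of sterol synthesis. For *INSIG1* they included *HMGCS1* (0.72) and *ZBTB46* (0.70). For *HMGCS1* they were *BLOC1S5* (0.87), *PPP1R9A* (0.81) and *FDFT1* (0.80), the squalene synthase. *SREBF2* was most like *C15orf39* (0.91) and *PPP1R26* (0.90). *NR1H3* was most like *APLP2* (0.93), the TGF-β family receptor *ACVRL1* (0.89) and *ID1* (0.88). For the targets of LXR these were *SLC4A7* (0.78), *CBLB* (0.77) and *SNORD94* (0.76) with *ABCA1*, *PPP1R1B* (0.79), *PRPF19* (0.78) and *SEPTIN6* (0.77) with *ABCG1*, and *CLEC4D* (0.80), *ACKR1* (0.79) and *RARB* (0.78) with *MYLIP*. With stage means removed, *MSMO1* and *SQLE* kept r of 0.93, and *FDFT1* and *HMGCS1* reached 0.90. Over the 19 other tested genes of synthesis and uptake, the median within-stage r was 0.50 to *HMGCS1*, 0.36 to *INSIG1* and 0.32 to *SQLE*, beside 0.005, 0.003 and 0.019 over all 10669 genes.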

How the data were processed

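Whole blood in EDTA and TRIzol LS was sequenced from 18 libraries, 6 per stage; the methods name 6 cows. According to the methods and the submitters' processing notes, the authors trimmed reads (Cutadapt 1.9), aligned them with HISAT2 2.2.1 to *Bos grunniens* (v101), assembled with StringTie 2.1.6 and estimated FPKM with StringTie and ballgown. The authors deposited FPKM values, per exon length and mapped reads, and whole-number counts that were not normalized; how the counts were made, and whether strand was used, is not given in the sources used here. The processing notes also name DESeq2 and edgeR, and which of them gave the study's calls is not given in the sources used here.

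Counts were tested with edgeR 4.0.16 in R 4.3.3: TMM normalization, filterByExpr, a quasi-likelihood model of stage alone on all 18 libraries, two-sided tests and Benjamini-Hochberg adjustment over 14508 genes. A gene passed at an adjusted p under 0.05; the study's rule also asks for a change of 1 or more on the log2 scale. Intervals are 95% and use the fit's degrees of freedom. Log2 CPM for correlations used a prior count of 2. DESeq2 1.42.0, limma 3.58.1 on log2(FPKM + 1) and log2(FPKM + 0.1), other normalizations, filters, sample sets and a replicate block were alternatives. The fit was also run on simulated counts with known changes, drawn as independent libraries without a cow effect. That run cannot show how shared cows affect the p-values. The members, lists and tests were chosen with earlier results of these data known. Named genes are the 8 members, every list gene that passed in a comparison and the 3 most similar named genes per member. *NR1H2* is named besides, as the other LXR gene. Some genes that this rule or the marker lists name are not reported here. Figures were drawn with matplotlib 3.10.9.

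The numbers 1 to 6 recur in each stage, but no source ties a number to a cow. Correlations of same-numbered libraries' deviations from their stage means ran from 0.11 to 0.515 for Y-A with Y-E, −0.0492 to 0.369 for Y-A with Y-P and −0.0544 to 0.4 for Y-E with Y-P. Values over 0.1 were found for 6 of 6, 4 of 6 and 4 of 6 pairs in this order. The main fit has no term for the cow or the number. No 2 libraries of a stage agreed within sampling noise. The p-values cover the spread between these libraries.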

Additional observations from a re-analysis of the deposited data

Results flagged for a closer look

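*NR1H3* in Y-A replicate 1 stood apart from the rest of its stage, at 59.8 CPM against a next highest value of 31.0 CPM. Its gap was 0.72 of the range of the 6 libraries, over Dixon's 95% limit for 6 values. Of the 24 combinations of gene and stage examined it alone exceeded the limit, and chance gives about 1 in 20. Without this library the log2 fold change of *NR1H3* was −0.73 in Y-P vs. Y-A (adjusted p = 0.0778, edgeR).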

How the results depend on the processing

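The count of members that passed was 0 in Y-E vs. Y-A under every alternative run. In Y-P vs. Y-A it fell from 1 to 0 with limma on log2(FPKM + 1) or log2(FPKM + 0.1), with the replicate block without Y-E replicate 6, and in 8 of the fits with a library removed (range 0 to 1). In Y-P vs. Y-E it rose from 1 to 2, through *ABCA1*, with library size only, DESeq2, both limma settings, the replicate block and the 2 stages alone (range 1 to 2 with a library removed). The lists of other cholesterol genes moved more. Without a library they ranged, in Y-P vs. Y-A, from 0 to 1 for LXR partners, 0 to 1 for synthesis and 0 to 3 for storage, and in Y-P vs. Y-E from 1 to 3 for LXR partners, 0 to 1 for SREBP processing and 1 to 2 for synthesis. In Y-P vs. Y-A, DESeq2 called 2 LXR partners, 1 synthesis and 3 storage genes (and 1 storage gene in Y-E vs. Y-A), limma 1 synthesis and 1 processing gene under both pseudocounts, library size only 1 processing gene, the fit without hemoglobin genes 1 LXR partner and 2 storage genes, and the fit without a low-count filter 0 storage genes. In Y-P vs. Y-E, library size only called 1 LXR partner and 3 processing genes, DESeq2 2 processing and 2 synthesis genes, limma 1 LXR partner and 6 or 5 processing genes, and the unfiltered and 2-stage fits 0 processing genes.

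With the replicate block, the pairing by number gave 1 LXR partner, 2 synthesis and 4 storage genes in Y-P vs. Y-A and 2 synthesis genes in Y-P vs. Y-E. Leaving Y-E replicate 6 out of that fit gave 1, 1, 3 and 3. *NR1H3* kept its call with the block (−0.96, adjusted p = 0.047, in Y-P vs. Y-A).

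No value that had passed changed sign. Of those that had not, limma on log2(FPKM + 1) and log2(FPKM + 0.1) gave in Y-P vs. Y-A 0.0469 and 0.0561 for *ABCA1*, 0.00121 and 0.00234 for *HMGCS1*, 0.0435 and 0.0477 for *INSIG1* and 0.166 and 0.169 for *SREBF2*. In Y-P vs. Y-E it gave 0.0191 and 0.0209 for *HMGCS1*, 0.0130 and 0.0135 for *INSIG1*, 0.00421 and 0.00454 for *MYLIP* and 0.0994 and 0.103 for *SQLE*. With library size only, *SREBF2* was 0.125 in Y-P vs. Y-A and *SQLE* 0.0425 in Y-P vs. Y-E; the block without Y-E replicate 6 gave *SQLE* 0.0323. In Y-E vs. Y-A, *ABCG1* was −0.0592 with that block and −0.0102 without hemoglobin genes. *INSIG1*, at −0.0013 there, was 0.0068 with DESeq2 size factors, 0.0069 with DESeq2, 0.0120 with library size only, 0.00087 unfiltered, 0.0305 and 0.0342 with limma, 0.0199 with the block and 0.0083 with 2 stages. With a library removed, values crossed 0 in Y-E vs. Y-A for *ABCG1* (−0.13 to 0.12), *HMGCS1* (−0.12 to 0.062), *INSIG1* (−0.071 to 0.13) and *NR1H3* (−0.064 to 0.42), in Y-P vs. Y-A for *SQLE* (−0.037 to 0.14) and *SREBF2* (−0.17 to 0.058), and in Y-P vs. Y-E for *SQLE* (−0.19 to 0.033).

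Library size scaling moved the median of all genes to 0.19 in Y-P vs. Y-A and 0.18 in Y-P vs. Y-E, and the share of calls that were higher from 38.1% to 80.6% and from 39.9% to 70.3%. Limma on log2(FPKM + 1) and log2(FPKM + 0.1) moved the median to 0.15 and 0.22 in Y-P vs. Y-A and to 0.14 and 0.21 in Y-P vs. Y-E. The share of higher calls was then 89.3% and 88.1% in Y-P vs. Y-A and 78.2% and 77.4% in Y-P vs. Y-E. The cause of these shifts was not tested.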

Other observations

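The members were also set beside the summed levels of the 7 marker lists within stages (log2 values, stage means removed, 18 libraries, 56 pairs, given as descriptions). The lowest of these correlations was that of *MYLIP* with the B cell list (r = −0.75, rho = −0.70), and *MYLIP* had r of 0.62 to the monocyte list (rho 0.63) and 0.58 to the red cell list (rho 0.61). *ABCG1* went the other way, with r of 0.66 to the B cell list (rho 0.55) and −0.40 to the monocyte list (rho −0.33). *HMGCS1* had r of 0.52 to the B cell list and −0.52 to the monocyte list. *INSIG1* and *SQLE* were lower where neutrophil markers were higher, with r of −0.62 (rho −0.68) and −0.55 (rho −0.49), and *NR1H3* had r of 0.49 to the monocyte list (rho 0.67) and 0.48 to the neutrophil list (rho 0.36). For *ABCA1* every list lay between −0.33 and 0.22.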
